A study of Caenorhabditis elegans with 2 samples.

Results

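Of the 3870 binding peaks mapped for MDL-1 in first-stage (L1) larvae of Caenorhabditis elegans, 315 lay in promoters on chromosome X and had no canonical E-box at the summit. They were chosen from the authors' optimal list, which keeps peaks by the irreproducible discovery rate (IDR), a measure of how well replicate rankings hold up. A member has its summit, the position of strongest signal, on X, at most 1000 bp before and at most 200 bp after the 5' end of a protein-coding gene, a stretch called its promoter window. No hexamer CACGTG lies wholly within 50 bp of that summit. X carried 853 peaks of the list and 361 of these were in promoters; 46 of the 361 held CACGTG and the other 315 are described here. No measured signal beyond presence in the list was used to choose them.

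The study precipitated eGFP-tagged MDL-1 from whole larvae, with sequencing of the bound DNA (ChIP-seq), in 2 biological replicates of 1 group. Both replicates came from strain OP106, of genotype unc-119(ed3) III; wgIs106, in which wgIs106 is the integrated transgene for tagged mdl-1. Animals of both sexes were pooled, their exact age is unknown per the labels, and the sources used here do not name the promoter that drives the transgene. There was no untreated or untagged group among the samples, so the members are set against other peaks of the same list and against DNA beside the peaks. Whole larvae mix all tissues, so a peak made by many cells and one made strongly by few cells cannot be told apart. The peak lists hold no read counts, so the depth behind a peak is unknown.

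MDL-1 belongs to the MAD branch of the basic helix-loop-helix leucine zipper family. It dimerises with the MAX-like protein MXL-1 and binds the E-box CACGTG, and MAD proteins are known in mammals as repressors that counter MYC. Peaks that lack the factor's own motif are common in ChIP-seq of transcription factors. Worm X chromosomes are under dosage compensation, which acts on the X of hermaphrodites, and they carry few genes needed in the germ line.

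The DNA under the highest members is shown first, since it is what the rule left behind when CACGTG was set aside. Each line gives 50 bp to either side of a summit, on the plus strand of ce11 (WBcel235, RefSeq genome sequence). Capitals mark copies of the 6 hexamers found most often in members relative to DNA beside them, which are GAGAGA with AGAGAG and AAGAGA (the GA repeat and its neighbours), CACACA with ACACAC (the CA repeat), and ACGCGC, on either strand.
puf-9, chrX:5841247-5841347: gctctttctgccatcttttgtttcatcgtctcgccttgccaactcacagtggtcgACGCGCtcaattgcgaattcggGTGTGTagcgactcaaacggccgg
K02A6.3, chrX:8231992-8232092: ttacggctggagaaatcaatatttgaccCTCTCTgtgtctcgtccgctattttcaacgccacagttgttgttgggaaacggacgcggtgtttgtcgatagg
epn-1, chrX:14818904-14819004: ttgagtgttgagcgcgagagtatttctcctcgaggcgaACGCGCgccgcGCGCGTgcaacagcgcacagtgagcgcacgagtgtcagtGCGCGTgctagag
nipi-3, chrX:15607629-15607729: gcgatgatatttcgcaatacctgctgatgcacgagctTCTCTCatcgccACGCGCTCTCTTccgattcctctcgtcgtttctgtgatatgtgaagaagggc
zfp-3, chrX:1446935-1447035: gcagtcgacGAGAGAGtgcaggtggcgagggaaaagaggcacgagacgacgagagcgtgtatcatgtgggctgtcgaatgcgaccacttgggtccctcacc
hsp-3, chrX:6092127-6092227: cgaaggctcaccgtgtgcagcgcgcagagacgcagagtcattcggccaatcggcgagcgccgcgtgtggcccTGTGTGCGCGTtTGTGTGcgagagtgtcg
rpl-11.2, chrX:2242940-2243040: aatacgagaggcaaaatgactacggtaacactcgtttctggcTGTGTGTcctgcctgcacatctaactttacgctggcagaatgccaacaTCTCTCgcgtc
The first 4 are the highest members; zfp-3, hsp-3 and rpl-11.2 are shown because they hold GAGAGA or CACACA. The windows of epn-1, zfp-3 and hsp-3 are the richest in G and C among them, at 63.4%, 60.4% and 66.3%.

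The member of highest score lay 295 bp upstream of puf-9, which encodes a Pumilio-family RNA-binding protein. Its pooled score, the authors' own value for a peak with no stated scale, was 461.6. In its own list replicate 1 gave it 252.2 (rank 22) and replicate 2 gave it 204.7 (rank 11). K02A6.3 followed with 460.4, with 293.7 (rank 12) in replicate 1 and 172.6 (rank 24) in replicate 2. The peak 440 bp upstream of epn-1, the gene of the endocytic adaptor epsin, scored 376.4 at rank 31 in replicate 1 and rank 34 in replicate 2. The peak 290 bp upstream of nipi-3, a Tribbles-like pseudokinase of the antifungal response, scored 354.9, at rank 25 in replicate 1 and rank 56 in replicate 2. These 4 summits were in intergenic DNA and stood near the top in both replicates.

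Genes of protein synthesis and protein folding were also among the 25 highest. The peak of eef-1A.2, a translation elongation factor gene, scored 327.3 (rank 40 in replicate 1, rank 98 in replicate 2). That of hsp-3, an endoplasmic reticulum chaperone of the BiP type, scored 282.3, at rank 72 in replicate 1 and rank 106 in replicate 2. The peak of the ribosomal protein gene rpl-11.2 scored 232.9, with rank 246 in replicate 1 and rank 73 in replicate 2. A summit lay between trap-2, a subunit of the translocon-associated complex, and its divergent neighbour ile-2, and scored 176.6 with rank 259 in replicate 1 and 308 in replicate 2.

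The rest of the 25 included zfp-3, a zinc finger gene, at 329.5 and mans-3 at 340.6. Also among them were oga-1, the enzyme that removes O-GlcNAc, at 220.5, and ain-1, a GW182-type partner of the microRNA machinery, at 205.6. The gene of the succinate dehydrogenase flavoprotein, sdha-1, scored 194.3. All 25 ranked among the highest 3870 peaks of each replicate, no lower than 361 in replicate 1 and 350 in replicate 2. Of the 25, 9 held the GA repeat, 6 the CA repeat, 22 at least 1 leading hexamer, and 2 lay in divergent promoters. At least 1 of the close relatives of the E-box listed further on was in 15 of the 25.

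**Figure D1:**
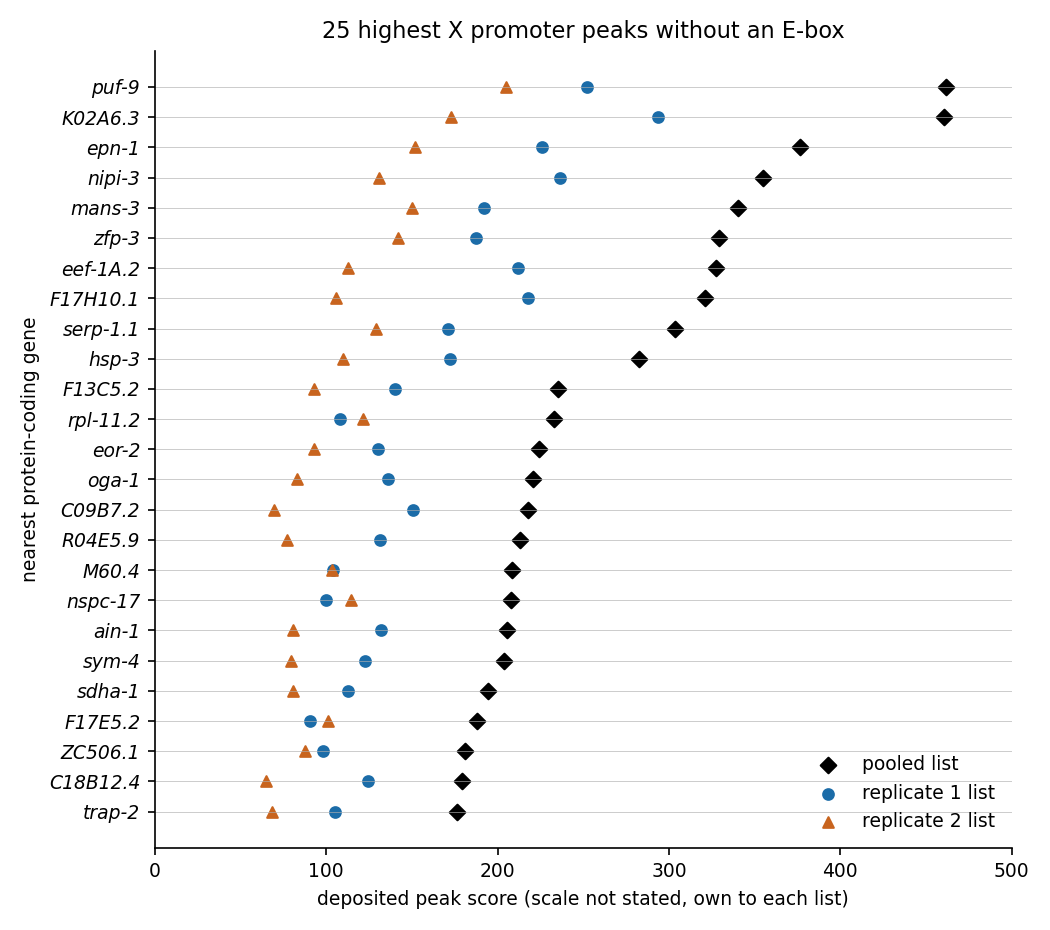
Deposited peak scores (horizontal axis, no stated scale) of the 25 highest members, named by the nearest gene, in the pooled list (diamonds), the replicate 1 list (circles) and the replicate 2 list (triangles). Each list has its own scale, so only the order within a list can be read, where pooled scores span 461.6 at puf-9 down to 176.6 at trap-2.

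As a whole the members were spread evenly over the strength range of the list. The pooled scores lay between 32.8 and 461.6, and their median was 58.2 (95% interval 53.1 to 63.4, from the order of the 315 values). Autosomal promoter peaks without CACGTG, of which there were 1465, had a median of 61.2 (59.0 to 63.5), and all IDR peaks one of 58.8. In their own lists, members scored 7.53 to 293.7 in replicate 1 (median 34.6, n = 310) and 5.44 to 204.7 in replicate 2 (median 26.2, n = 304). X promoter peaks with CACGTG had a median pooled score of 84.5 (63.2 to 129.4, n = 46). With the IDR list cut by score into 4 groups of equal size, the groups held 85, 71, 80 and 79 members from strongest to weakest. Peaks are not replicates of a condition, so these intervals, and all those given for shares, cover counting error among peaks and not the spread between animals.

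Most members were seen in both replicates. A summit within 100 bp was present in the relaxed lists of both replicates, each holding 30000 peaks, for 299 of the 315 (94.9%), against 94.5% of all IDR peaks. Among the highest 3870 peaks of replicate 1 there were 275 members (87.3%, exact 95% interval 83.1 to 90.8), against 86.2% of all IDR peaks. Among those of replicate 2 there were 251 (79.7%, 74.8 to 84.0), against 79.5%. Both replicates placed 218 members this high (69.2%, 63.8 to 74.3), against 67.8% of all IDR peaks. In all 4 counts the share of members was close to that of the whole list, which was itself chosen on both replicates. Against autosomal promoter peaks without CACGTG the share in replicate 2 differed by -4.89 percentage points, at 79.7% against 84.6% (Newcombe 95% interval of the difference -9.99 to -0.379). In replicate 1 it differed by 2.05 points (-2.43 to 5.8) and in both by -2.53 (-8.29 to 2.85), intervals that take in 0.

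Support by both replicates fell with the pooled score. That score was called on the reads of both replicates together, so a tie of this kind is in part built in. The members were cut into 4 groups by score. Of the 78 in the strongest group, with scores from 94.4 upwards, 77 were among the highest of both replicates, and of the 79 in the weakest, with scores up to 42.4, 12 were (15.2%, 8.1 to 25). All IDR peaks in the same score ranges were at 98.8% in the strongest and 17.5% in the weakest. The weakest group had pooled ranks of 2910 to 3864, next to the limit of 3870 used for the count. The peak of mup-2, a muscle troponin T gene, ranked 1831 in replicate 1 and 18082 in replicate 2. That of K06A9.2 ranked 1587 in replicate 1 and 18701 in replicate 2, and that of gly-12 ranked 4231 and 20466 in the same order. The opposite held for nlp-76, a neuropeptide-like gene, at rank 9572 in replicate 1 and rank 876 in replicate 2. The peaks of pigx-1 (rank 6815 in replicate 1, 1254 in replicate 2) and F15G9.1 (7285 and 2427) moved the same way as nlp-76.

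Some members were missing from a relaxed list altogether. In replicate 1 the 5 without a summit were 1 of the 2 peaks of sem-5, the GRB2-like adaptor gene, and the peaks of plpp-1.3, bet-2, utx-1 and osm-11. In replicate 2 there were 11, of which the strongest was unc-115, an actin-binding protein gene, with a pooled score of 89.5 and rank 820 in replicate 1. The weakest members by pooled score were pxn-2 at 32.9, F15G9.1 at 32.8 and F35H12.1 at 32.8.

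**Figure D2:**
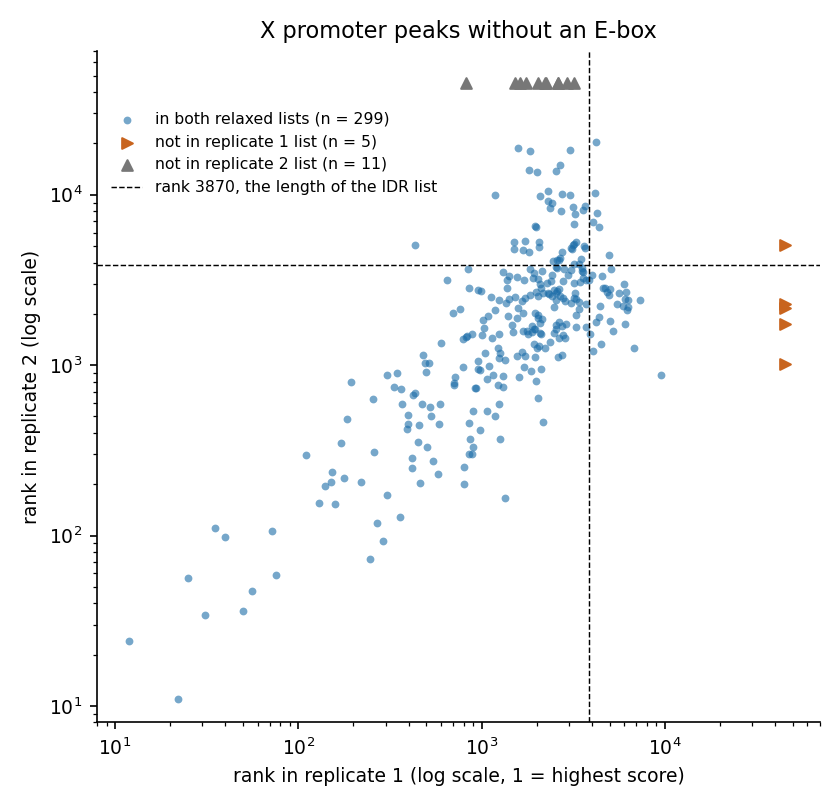
Rank of each member in replicate 1 (horizontal) against replicate 2 (vertical), both on log scales with 1 as the highest score; dashed lines mark rank 3870, and triangles at the edges mark members absent from one relaxed list. The 299 members in both lists narrow toward the strong end, and the 5 and 11 missing from replicate 1 and replicate 2 sit at the right and upper edges.

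Within the promoter window, members lay farther from the nearest 5' end than autosomal peaks did. A summit in several windows is given its smallest distance, and 8.57% of members against 37.2% of autosomal peaks lay in 2 or more. Without divergent promoters, an alternative chosen after seeing the data, the members' median was 284 bp (226 to 314). The autosomal value for this is not given here, and the part of shared windows in the difference was not tested. The median summit was 249 bp upstream of the nearest 5' end (211 to 301), with quartiles at 140.5 and 474 bp, against 186 bp (175 to 199) for autosomal promoter peaks without CACGTG. The summit was within 200 bp of the 5' end for 128 members (40.6%), against 52.9% of the autosomal peaks, a difference of -12.3 points (-18.1 to -6.19). More than 500 bp upstream lay 71 members (22.5%, 18 to 27.6), against 15.2% (13.4 to 17.1). The 46 X promoter peaks with CACGTG had a median of 248 bp, with quartiles at 83.2 and 502.5 bp. By annotation, 286 members (90.8%) had the summit in intergenic DNA, 15 in an intron, 14 in an untranslated exon and 0 in a coding exon (exact upper limit 1.16%).

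Few members sat between divergent genes. In 24 of the 315 (7.62%, 4.94 to 11.1) the summit fell in the promoter windows of genes on opposite strands, against 511 of 1465 autosomal peaks (34.9%), a difference of -27.3 points (-30.7 to -23). Such shared DNA is also scarcer on X: it made up 3.74% of the bases in X promoter windows, against 10.7% of those on autosomes. Among members in divergent promoters were the pairs trap-2 with ile-2, R04E5.9 with cnnm-2, and C28G1.2 with sec-15, the last a subunit of the exocyst.

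**Figure D3:**
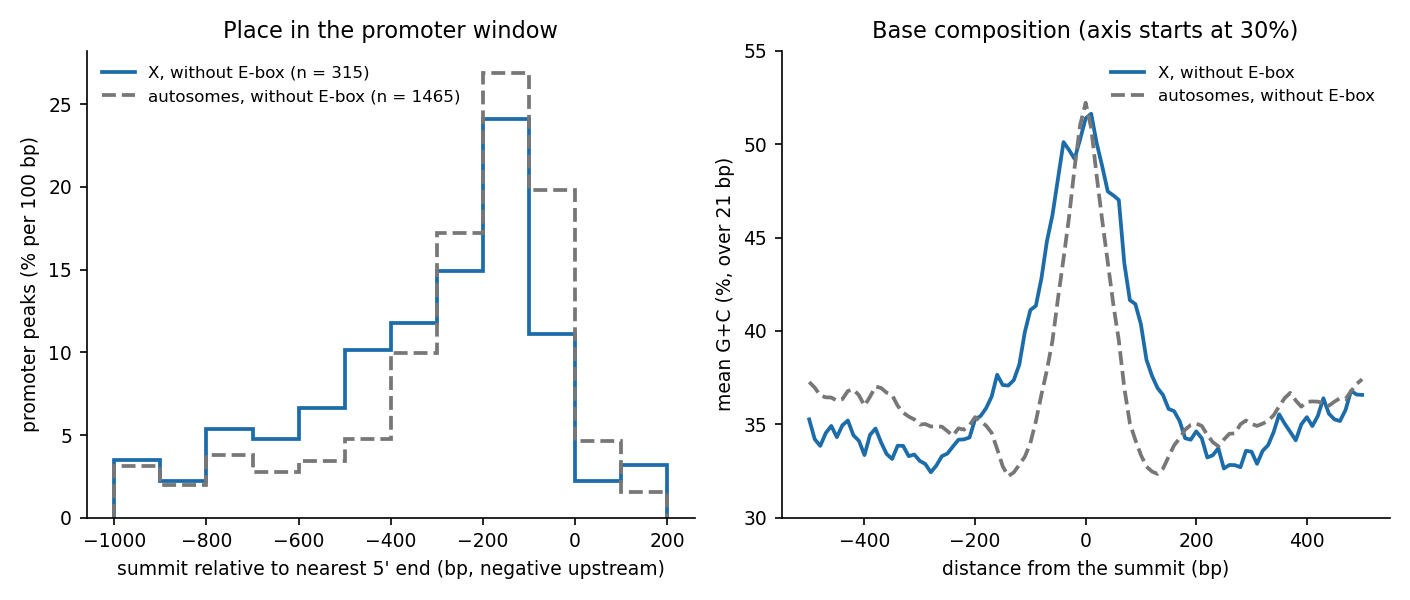
Left, share of promoter peaks (vertical, percent per 100 bp) by summit position relative to the nearest 5' end, for the 315 members (solid) and 1465 autosomal peaks without CACGTG (dashed). Right, mean G+C (vertical, percent over 21 bp, axis from 30%) against distance from the summit for the same peaks. Both centre near 51 to 52%, and at -100 bp from the summit members are at 41.1% against 34%.

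Members stood on G+C-rich islands in A+T-rich promoters. The windows of 101 bp around the summit had a median G+C of 49.5% (48.5 to 50.5). Autosomal peaks without CACGTG had 47.5% (46.5 to 47.5), the members' own windows moved by 500 bp to either side 34.7%, and windows tiled over all X promoters 33.7%. At the summit the mean was 51.4% in members and 52.2% in autosomal peaks, but at 100 bp from it 40.4% in members against 33.4%. Base composition moves with the motif shares that follow, and its part in them was not tested.

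The GA and CA repeats were the sequences that members held most often beyond the DNA beside them. GAGAGA was within 50 bp of the summit, on either strand and wholly inside, in 93 members (29.5%, 24.5 to 34.9), against 4.60% of the moved windows and 6.15% of the windows tiled over X promoters. CACACA was found in 81 members (25.7%, 21 to 30.9), against 4.44% of moved windows and 5.50% of tiled windows. Either of them was in 155 members (49.2%, 43.6 to 54.9), against 8.89% of moved and 11.1% of tiled windows, and both were in 19. ACGCGC was in 60 members (19%), against 1.11% of moved windows and 1.38% of tiled ones. These hexamers were picked by their excess in the same windows, so the shares describe the members and are no test of them. Overlapping hexamers of a repeat count the same DNA, and a match is a description and not a binding site. The hexamers set against autosomal peaks below were also picked from these peaks. They were picked by their excess in members or in autosomal peaks, or by the size of the difference in either direction. The intervals of those differences do not allow for that choice, so they describe the picked hexamers and are no test of them.

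Compared with autosomal promoter peaks that also lack CACGTG, members held the CA repeat more often. CACACA was in 25.7% of members against 15.4%, a difference of 10.3 points (5.37 to 15.7), and ACACAC in 23.8% against 11.8% (12 points, 7.29 to 17.2). Within 25 bp of the summit the CACACA difference was 4.28 points (0.653 to 8.65). The 46 X promoter peaks with CACGTG held CACACA in 19.6%, ACACAC in 23.9% and GAGAGA in 23.9%. AGAGAG was in 28.9% against 18.8% (10.1 points, 4.95 to 15.7). For GAGAGA the difference was 5.22 points, at 29.5% against 24.3%, and its interval of -0.0522 to 10.9 just took in 0. The interval lay above 0 under 7 alternatives, among them the list without replicate 1, at 8.61 points (3.23 to 14.3). The difference was smaller under others, at 0.791 points (-3.19 to 5.46) with the search narrowed to 25 bp on either side. ACGCGC did not differ beyond counting error, at 19% against 17.5% (-2.87 to 6.63). Other hexamers went the opposite way: GACGCA was in 13% of members against 20.8% (-7.73 points, -11.7 to -3.11). The A-rich AAAAAT was in 10.8% against 26.6% (-15.8 points, -19.5 to -11.3).

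The repeats differed along the strength range. From the strongest of the 4 score groups of members to the weakest, GAGAGA was held by 34.6%, 41.8%, 27.8% and 13.9%, while CACACA stayed at 26.9%, 26.6%, 22.8% and 26.6%. The same groups had median G+C of 51.5%, 51.5%, 47.5% and 47.5%, and the weakest lay farthest upstream, at a median of 408 bp against 232 bp in the strongest. Read in the direction of the nearest gene, GAGAGA was on the coding strand in 38 members and on the template strand in 48, with 3 holding both, leaving out divergent promoters. That is 44.2% coding (33.5 to 55.3), against 33.9% (28 to 40.1) in autosomal peaks, where 84 were coding and 164 template.

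Close relatives of the E-box were present in a minority of all members, but in 15 of the 25 highest. At least 1 of CACGCG, then CACGAG, then CATGTG and CATGCG, each differing from CACGTG by a base or more, was in 87 members (27.6%, 22.8 to 32.9), against 6.98% of moved windows and 8.08% of tiled ones. The autosomal peaks held them in 33.2%, and the difference of -5.62 points had an interval of -10.9 to 0.0757. CACGCG alone was in 9.21% of members and 0.317% of moved windows, and CATGTG in 10.5% and 3.81%. CAGCTG, the E-box of MyoD-like factors, was in 3.49% and 2.54%. From the strongest group to the weakest the variants were held by 34.6%, 26.6%, 32.9% and 16.5% of members.

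Some other motifs were also more frequent in members than in the DNA beside them. The palindrome TGCGCA was in 7.30% of members (4.68 to 10.8) and 1.11% of moved windows, and ACGCGT was in 5.08% and 0.794%. The GC box CCGCCC was in 3.81% and 0.952%, and the CREB/ATF site TGACGT in 7.30% and 3.97%. The letters of most of these motifs are rich in G and C, as the members' windows are.

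Further motifs were near or under the level of the DNA beside the peaks. The GATA site TGATAA was in 7.62% of members (4.94 to 11.1) and 9.68% of moved windows, and it was in 12 of the 46 X promoter peaks with CACGTG (26.1%). The TATA box TATAAA was in 3.17% of members and 12.5% of moved windows. TTTCAG, the 3' splice and trans-splice acceptor, was in 2.22% and 20.2%. The heat shock element GAANNTTC was in 2 members (0.635%) and 6.35% of moved windows. The NF-Y site CCAAT was in 14.6% and 17.9%. The core GCGCAGGG of the MEX motif, found at recruitment sites of the dosage compensation complex, was in 2 members, those of nspc-17 (score 207.6) and ins-39 (145.7), and in 0 of the 630 moved windows.

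**Figure D4:**
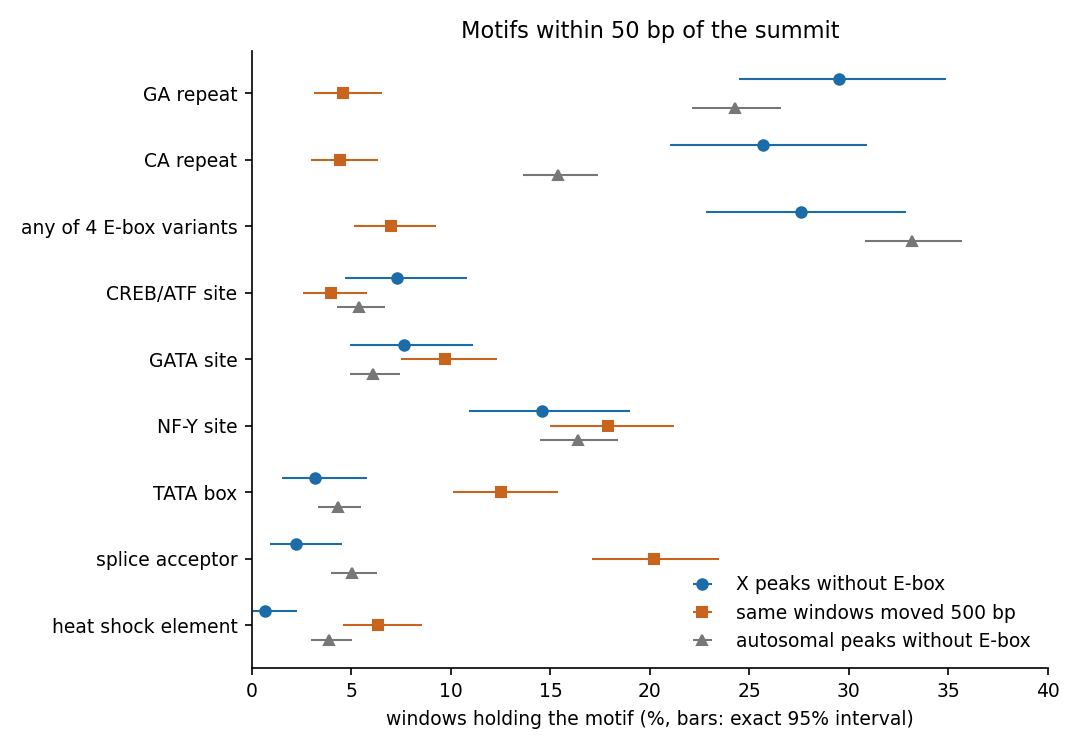
Share of windows that hold each motif within 50 bp of the summit (horizontal, percent, bars are exact 95% intervals) for members (circles), the members' windows moved by 500 bp (squares) and autosomal promoter peaks without CACGTG (triangles). The GA repeat, CA repeat and E-box variants stand apart from the moved windows, at 29.5%, 25.7% and 27.6% of members, while TATA and splice acceptor motifs are lower in members, at 3.17% and 2.22%.

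A small group of members lay at tRNA genes, which RNA polymerase III transcribes. An annotated tRNA gene was within 200 bp of 18 summits (5.71%, 3.42 to 8.88), against 26 of 1465 autosomal peaks (1.77%), a difference of 3.94 points (1.72 to 7.13). tRNA genes are also denser on X, which carries 276 of the 612 in the genome. Of the tiled windows 0.605% on X and 0.182% on autosomes were that close to a tRNA gene, as were 0.476% of the members' moved windows. The 19 tRNA genes with a member summit were 6.88% of those on X. tRNA genes occur in near-identical copies, and the sources used here do not say how reads matching several copies were placed.

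All 18 summits were close to the tRNA itself, from 87 bp before its start to 37 bp after it, with 8 inside the gene. The sequences show the 2 highest, 100 bp to either side of the summit on the plus strand, with the bases of the annotated tRNA gene in capitals.
C28G1.2 with tRNA-Glu, chrX:8835926-8836126: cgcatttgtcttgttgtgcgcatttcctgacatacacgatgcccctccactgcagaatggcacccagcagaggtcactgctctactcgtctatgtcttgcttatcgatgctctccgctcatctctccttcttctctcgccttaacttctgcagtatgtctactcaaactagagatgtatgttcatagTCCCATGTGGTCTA
C04C11.25 with tRNA-Glu, chrX:14015841-14016041: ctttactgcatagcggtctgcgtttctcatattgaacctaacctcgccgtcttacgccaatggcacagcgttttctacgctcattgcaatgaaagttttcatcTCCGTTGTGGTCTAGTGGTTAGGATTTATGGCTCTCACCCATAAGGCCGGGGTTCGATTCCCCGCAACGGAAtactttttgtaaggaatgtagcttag
In the first the summit lies 87 bp before the tRNA start, so the tRNA only enters at the end, and in the second it lies 3 bp before it.

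The tRNA members had pooled scores between 34.4 and 159.6, with a median of 51.2 beside 58.2 for all members, and 12 of the 18 were among the highest 3870 peaks of both replicates. The peak of C28G1.2 scored 159.6 and ranked 419 in replicate 1 and 284 in replicate 2. That at rte-1, the tRNA-Glu gene by C04C11.25, scored 100.3 and ranked 1187 in replicate 1 and 500 in replicate 2. A tRNA-Leu gene near sor-3 had a peak of 99.0, and a tRNA-Pro gene near the collagen gene col-185 one of 63.8. The B box letters GTTCGANNC, part of the internal promoter of tRNA genes, were within 50 bp of 5 of the 18 summits. The GA repeat was in 4 of them and the CA repeat in 1.

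Other non-coding genes were near members as well. Genes of the broad annotated class ncRNA were within 200 bp of 64 summits (20.3%, 16 to 25.2), against 12.4% of autosomal peaks (7.89 points, 3.45 to 12.9). They were that close to 5.56% of the members' moved windows. These genes are also denser on X, which carries 2520 of the 7764 in the genome. Of the tiled windows 7.94% on X and 3.22% on autosomes were that close to one. The peaks of puf-9, epn-1, eef-1A.2 and rpl-11.2 were among the 64. A snoRNA gene, which guides modification of other RNAs, was near 1 member, the one at sdha-1, against 28 autosomal peaks (1.91%). Such genes were near 0.129% of tiled windows on X and 0.257% on autosomes. snRNA and microRNA genes were near 0 of 315 members, for which the exact upper limit is 1.16%.

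In all, 339 of the 2731 protein-coding genes on X had a member summit in their promoter window, which is 12.4%. Of these, 334 had 1 such peak and 5 had 2: nipi-3, sem-5, ftt-2, got-2.2 and Y15E3A.5. The second peak in the window of nipi-3, with a score of 145.9, was nearer to rab-14. There were 6 genes with a promoter peak of each kind. Among them mxl-3, a MAX-like relative of the partner of MDL-1, had a member peak of 53.0 and a CACGTG peak of 54.3, and bet-2 had 42.2 without and 254.8 with CACGTG. Shares of gene lists are set beside the 12.4%. Members of a list can share a peak, and the lists were chosen with earlier results of these data known. The lists were drawn up by gene name and are not complete for a function, so each share covers the listed genes alone. Together they held 581 X genes, 80 of which had a member.

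Among lists with 5 or more genes on X, those of energy metabolism had the highest shares of genes with a member in the promoter. For oxidative phosphorylation it was 5 of 6 X genes (83.3%, 35.9 to 99.6). On autosomes 43.1% of the genes of this list had a promoter peak without CACGTG. The share over all autosomal genes is not given here. The strongest on X were sdha-1 at 194.3, the complex III core gene ucr-2.1 at 131.6, and the ATP synthase genes asb-2 at 129.3 and asg-2 at 119.2. The asg-2 peak is also in the promoter window of glr-6, a glutamate receptor gene. In glycolysis and the TCA cycle the share on X was 5 of 7 (71.4%, 29 to 96.3), against 33.3% on autosomes. Among these were sucl-1 at 131.6 and suca-1 at 43.8, both for succinyl-CoA ligase, idh-2, an isocitrate dehydrogenase gene, at 69.1, and the glyceraldehyde phosphate dehydrogenase gene gpd-2 at 63.4. The gpd-2 summit, 529 bp upstream of its 5' end, was in an intron of another gene. The replicates ranked sdha-1 at 219 and 205, and asb-2 at 596 and 588, for replicate 1 and replicate 2 in turn.

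Vesicle traffic had 11 of 24 X genes with a member (45.8%, 25.6 to 67.2), against 33% on autosomes. After epn-1 came sec-15, whose peak is the one shared with C28G1.2 and the tRNA gene, at 159.6, rab-14, a Rab GTPase gene, at 145.9, and sec-16A.2, a gene of endoplasmic reticulum exit sites, at 99.8. Chaperones had 3 of 5, against 44.4% on autosomes. The 3 were hsp-3, the J-domain gene dnj-14 at 135.6 and the small heat shock gene hsp-43 at 33.8. Of 3 translation factor genes 2 had a member, eef-1A.2 and the cap-binding protein gene ife-2 at 83.8. Of 2 ribosomal protein genes 1 had one. On autosomes 53.8% of translation factor genes and 67 of 80 ribosomal protein genes (83.8%) had a promoter peak without CACGTG. With so few X genes per list the exact intervals are wide, and those of chaperones (14.7 to 94.7) and vesicle traffic lie above 12.4%.

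Among regulators, nuclear hormone receptors had 8 of 27 (29.6%, 13.8 to 50.2), against 12.6% on autosomes. The strongest were nhr-35 at 172.7, nhr-1 at 158.9 and nhr-48 at 148.9, and nhr-1 ranked 418 in replicate 1 and 250 in replicate 2. Other transcription factors had 6 of 37 (16.2%), against 12% on autosomes, with zfp-3 first. Within this list, after it came atf-4, of the integrated stress response, at 133.9, and atf-6, of the endoplasmic reticulum stress response, at 88.2. The heterochronic gene lin-14 followed at 74.6. The list is not complete and leaves out cebp-1, also a transcription factor gene, at 134.1. Homeobox genes had 1 of 25, ceh-39 at 77.6, and the GATA factors 0 of 5. On autosomes these shares were 2.99% and 8.33%. Chromatin genes had 5 of 25 (20%), against 21% on autosomes, with lin-15B at 107.3, set-20 at 67.2 and the linker histone gene his-24 at 56.1.

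Genes that count and compensate X were also represented. The list of X signal, sex determination and dosage compensation genes had 3 of 7 (42.9%, 9.90 to 81.6). These were sdc-2, which directs the dosage compensation complex to X, at 79.2, ceh-39, an X signal element, at 77.6, and sdc-1 at 61.0. All 3 ranked among the highest 3870 in both replicates: sdc-2 at 1186 in replicate 1 and 2114 in replicate 2, ceh-39 at 1245 and 1532, and sdc-1 at 1892 and 1565 in the same order. The interval of this list takes in the 12.4% of all X genes. On autosomes 5 of 17 genes of the list (29.4%) had a promoter peak without CACGTG.

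Kinases and phosphatases had 4 of 24, among them nipi-3 and kin-29, a salt-inducible kinase gene, at 115.9. RNA-binding protein genes had 2 of 7, puf-9 and the poly(A)-binding protein gene pab-2 at 120.2, whose peak ranked 435 in replicate 1 and 5061 in replicate 2. Transporters had 6 of 54 (11.1%), led by the vacuolar ATPase gene vha-12 at 142.0. Muscle genes had 4 of 15, all under 60 in score: tnt-2 at 59.7, act-4 at 43.4, mup-2 at 40.2 and unc-98 at 40.1. In the insulin, TOR and lipid list 1 of 9 had a member, akt-2, a kinase of insulin signalling, at 119.7. The heterochronic list had 2 of 5, lin-14 and the amyloid precursor-like gene apl-1 at 45.7. On autosomes the shares were 44.4% for the heterochronic list, 39.3% for RNA-binding protein genes and 23.8% for muscle genes. They were 20% for the insulin, TOR and lipid list, 19.8% for kinases and phosphatases and 10% for transporters.

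Several families had few members for their number of genes on X, among them families that act in neurons and at the surface of cells. Ion channels and gap junctions had 3 of 68 (4.41%, 0.919 to 12.4), which were glr-6, mec-10 and lev-9. The last was listed by its name and encodes a secreted protein that clusters acetylcholine receptors, not a channel. G protein signalling had 1 of 58 (1.72%, 0.0436 to 9.24), grk-1 at 93.9. Neuropeptides and insulin-like peptides had 2 of 38, ins-39 at 145.7 and nlp-76 at 50.4, and cuticle collagens and basement membrane genes had 2 of 35. Chemoreceptors had 0 of 34 (upper limit 10.3%), vitellogenins 0 of 5, and cytochrome P450, UGT and GST genes 0 of 14. Of these, the intervals of G protein signalling and chemoreceptors lay under 12.4%, and those of neuropeptides, collagens, vitellogenins and the P450, UGT and GST genes took it in. On autosomes the shares were similar for ion channels and gap junctions (3.33%), neuropeptides (3.7%) and collagens (5.56%). They were 0.939% for chemoreceptors, 7.95% for the P450, UGT and GST genes and 10.6% for G protein signalling, with 0 of 1 for vitellogenins. Development signalling had 2 of 14, synaptic transmission 1 of 11, proteasome and ubiquitin 1 of 8, and C-type lectins and F-box genes 1 of 20, each with an interval that took in 12.4%.

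**Figure D5:**
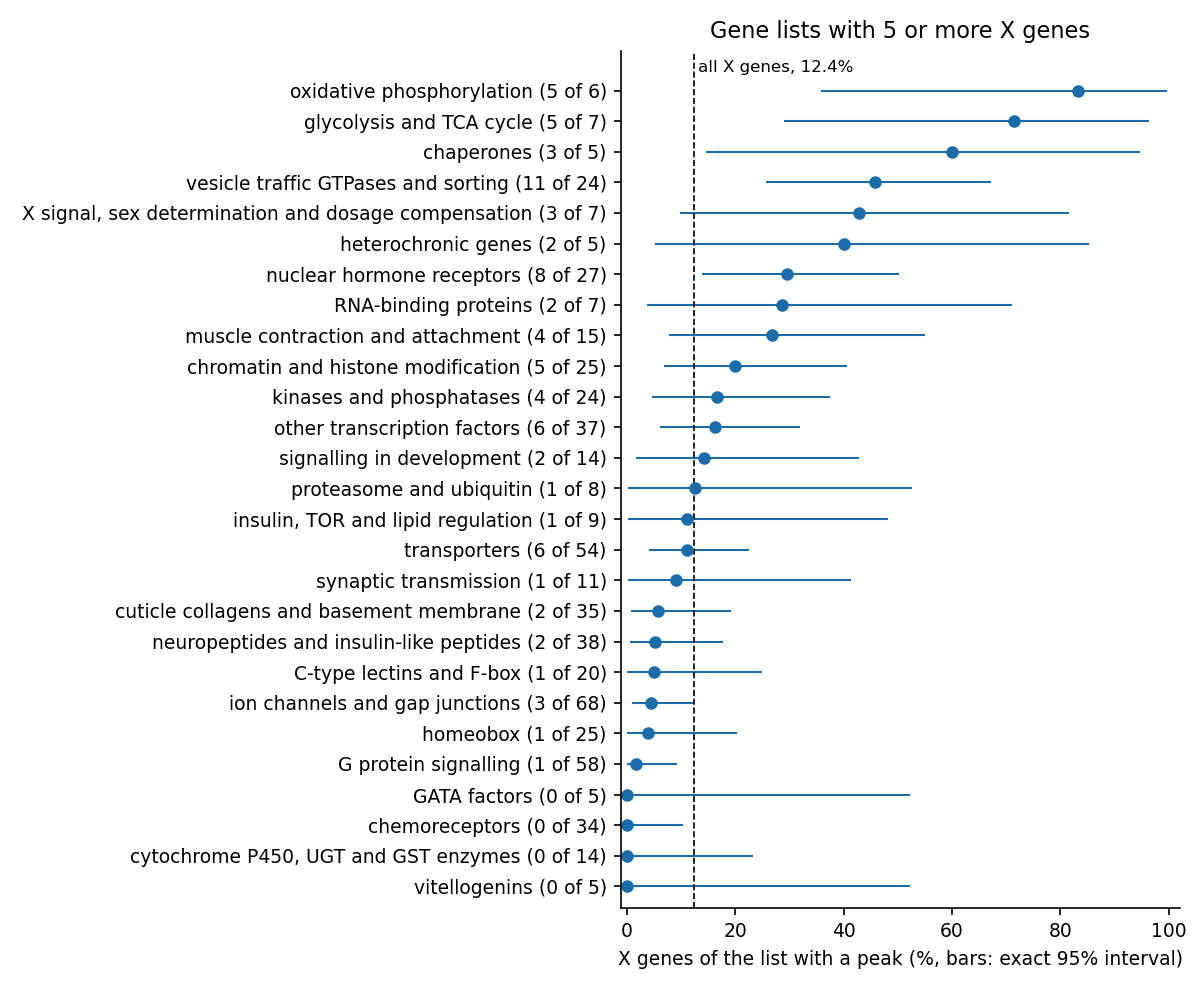
Share of the X genes of each list that had a member summit in the promoter window (horizontal, percent, points with exact 95% intervals), for lists with 5 or more genes on X; the dashed line is the 12.4% of all X genes. Oxidative phosphorylation (5 of 6), glycolysis and TCA cycle (5 of 7) and vesicle traffic (11 of 24) are to the right, and G protein signalling (1 of 58) and chemoreceptors (0 of 34) to the left.

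Members were spread along the whole of X. Each Mb held between 8 and 28, with 28 from 14 to 15 Mb, 25 from 4 to 5 Mb and 8 from 16 to 17 Mb. Per 100 gene 5' ends the range was 7.14 to 16.2. Another IDR peak was within 1000 bp of 24 members (7.62%) and within 2000 bp of 65 (20.6%, 16.3 to 25.5). Within 2000 bp the share was 17.8% (15.9 to 19.9) for autosomal promoter peaks without CACGTG and 29.1% for all IDR peaks. The median distance to the next peak was 6548 bp for members, 8095 bp for those autosomal peaks and 5012 bp for all. A peak with CACGTG was within 2000 bp of 16 members (5.08%).

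Peaks on both sides of the limits of the rule show what it divided. CACGTG lay beyond 50 bp and up to 100 bp from the summit in 8 members, and between 100 and 200 bp in 6. Of the 46 X promoter peaks set aside for their CACGTG, 18 had it only at 25 to 50 bp and 7 of these at 40 to 50 bp. The nearest outside were W07E11.1 at 55 bp (score 50.9), mans-3 at 56 bp (340.6) and alh-13 at 57 bp (44.0). Just inside, and so no members, were gst-42 at 48 bp (128.0), sur-5 at 47 bp (89.7) and F17H10.2 at 46 bp (150.9). Of the 25 highest members 3 had CACGTG this close, mans-3, K02A6.3 at 67 bp and R04E5.9 at 79 bp. The peak of mans-3 is shown with CACGTG in capitals and 75 bp to either side of its summit.
mans-3, chrX:5165159-5165309: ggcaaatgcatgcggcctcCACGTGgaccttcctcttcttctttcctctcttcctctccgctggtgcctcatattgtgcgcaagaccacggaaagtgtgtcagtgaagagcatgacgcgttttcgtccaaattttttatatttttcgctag
At the edges of the promoter window, the outermost members were C25F6.1 at 995 bp upstream (48.7) and gly-12 at 160 bp downstream (35.0). The first peaks beyond were nfki-1 at 1008 bp upstream (105.4) and K10B3.5 at 202 bp downstream (67.2).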

How the data were processed

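The peak lists hold 1 score per peak, which the authors deposited as their caller's own value; the sources used here do not state its scale, the aligner, the caller or the threshold for IDR. Relaxed peaks were called per replicate and on the pool by the authors, per the deposited inventories. Their IDR list in ce11 equals the 3870 highest peaks of the pooled list. Scores were used only to describe and rank peaks within a list; depth is unknown.

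Summits were placed on WBcel235 with the annotation of 19973 protein-coding genes. Motifs were searched on both strands within 50 bp of the summit, in members, in their windows moved by 500 bp, in autosomal promoter peaks without CACGTG, and in windows of 101 bp tiled over X promoters. Non-coding genes were counted within 200 bp. Shares have exact Clopper-Pearson 95% intervals, differences Newcombe 95% intervals. Both are over peaks or genes and cover counting error alone, not the spread between animals. No p-value was computed, since 2 replicates of 1 group give no comparison between groups.

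Named genes were the 25 highest members, up to 4 per gene list and non-coding class, those with the largest rank gaps, and those at the limits of the rule; other single genes were chosen after their values were seen. The members and the 29 lists were chosen with earlier results of these data known. Scripts were tested on simulated data. Python 3.11.15, pandas 2.3.3 and scipy 1.17.1 were used.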

Additional observations from a re-analysis of the deposited data

How the results depend on the processing

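Over 16 results and 180 alternatives, 160 values were counted as unchanged, none reversed, and no interval that excluded 0 came to take it in. Among the 160, values with an interval stayed within their error or kept their call. The counts of members and of genes have no error, and some that changed are among the 160. Both counts were higher with a promoter window of 2000 bp and lower with one of 500 bp. Some of the 160 could not change. Windows moved by 1000 bp were also counted for repeat shares and autosomal differences, which use no moved windows. The member count was 568 with 2 times as many pooled peaks and 156 with the higher-scoring 50%, and the genes were 584 and 171; median G+C was 47.5% and 51.5% in turn. A promoter window of 2000 bp gave a median distance of 358 bp and 15.3% divergent promoters, and one of 500 bp a distance of 198 bp. Searching 25 bp to either side left the GA repeat in 14.9% and the CA repeat in 13% of members, and the higher-scoring 50% held GA in 38.5%. Matching within 50 bp put 61.6% of members among the highest of both replicates. The GA difference from autosomal peaks, 5.22 points with an interval that took in 0, lay above 0 with CACGTG overlapping the window (5.51), within 100 bp (6.01) or within 25 bp (5.88), with every transcript 5' end (5.32), with the higher-scoring 50% (13.9) and with the window of 500 bp (8.58). Leaving out a replicate put it between 4.32 (without replicate 2) and 8.61 points (without replicate 1), and it was 0.791 (25 bp search), 1.88 (window of 2000 bp) and 2.22 (2 times as many peaks). It was above 0 under every alternative run, whether its interval excluded 0 varied, and the cause was not tested. Without divergent promoters, an alternative chosen after seeing the data, it was 2.91 points (-2.89 to 9.07), and the CA difference 10.4. The 25 bp search put the CA difference at 4.28 points (0.653 to 8.65), against 10.3 as reported. No paired analysis was possible because there is 1 group.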
